A study of Saccharomyces cerevisiae with 15 samples.

Results

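The comparison set yeast cells kept for 3 h with DMSO, the solvent control, against untreated cells taken at 0 h. It used 6 of the 15 libraries of the series, 3 in each group, and all genes in the count table. Every library came from Saccharomyces cerevisiae W303, a laboratory strain, carrying the genotype ZPR1-AID, in which the ZPR1 gene product bears an auxin-inducible degron. The other 3 groups received 5-Ph-IAA, the ligand that drives loss of a degron-tagged protein, for 0.5, 1.5 or 3 h. Cells were in mid-log growth, per the labels' protocols, and polyA RNA was sequenced. The labels give no dose of DMSO and no strain without the tag. They do not state that the 3 libraries of a group came from separate cultures. The p-values below rest on the spread between libraries within groups, estimated in 1 fit to all 15 libraries. That spread may be technical. There was no untreated group at 3 h, so the solvent and 3 further hours of culture cannot be told apart.

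DMSO is a small polar solvent that passes membranes freely and serves as the vehicle for many compounds. A yeast culture also changes as it grows: cells that take up glucose, zinc and inositol from the medium alter the transcripts for ribosome production, nutrient uptake and storage carbohydrates through regulators whose targets are well known. The activators Ino2 and Ino4, held back by Opi1, control phospholipid genes according to inositol. Zap1 activates zinc uptake genes when zinc is short, Aft1 activates iron uptake genes when iron is short, and the stress factors Msn2 and Msn4 activate storage and stress genes. Genes of ribosome assembly share short promoter elements called PAC and RRPE, and mating genes share the element bound by Ste12.

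Promoter stretches of genes that the results turn on are shown first, because several of the gene groups below are named for regulators that bind such elements. The groups were listed by gene and not by a search for the elements. The stretches were read from the R64 reference genome, which is not W303, and each runs 5′ to 3′ on the strand of its gene. Capitals mark 1 match of the searched element, in either orientation. Further matches can overlap it unmarked, as in DHR2, and several genes, among them CHO2, ITR1 and TSL1, hold matches not shown. Of the phospholipid genes, INO1 makes inositol from glucose, OPI3 and CHO2 methylate phosphatidylethanolamine to phosphatidylcholine, and ITR1 imports inositol. The capitals mark CATGTG, the core bound by Ino2 and Ino4, or its reverse complement.
INO1, chrX:136159-136188, minus strand: ggctaaatgcggCATGTGaaaagtattgtc
INO1, chrX:136094-136123, minus strand: acttatttaattCACATGgagcagagaaag
OPI3, chrX:573130-573159, minus strand: tcaatgagagtgCATGTGgaaagttgcacc
OPI3, chrX:573066-573095, minus strand: tatgcaaacccaCACATGcatcgttggttt
CHO2, chrVII:802161-802190, plus strand: ttattcccttctCATGTGaagagttcacac
ITR1, chrIV:1445671-1445700, minus strand: ccttccccaccgCATGTGaaaaaagctcga
YEL073C, chrV:7646-7675, minus strand: taaacggtcgagCATGTGaaatttacaagg
USB1 and CKI1 are divergent neighbours, and 1 match lies between them, shown from each side.
USB1, chrXII:408240-408269, minus strand: acggtagagcacCATGTGaatattatacca
CKI1, chrXII:408240-408269, plus strand: tggtataatattCACATGgtgctctaccgt
ZRT1, the high-affinity zinc transporter, and ZRG17, a zinc transporter of the secretory pathway, hold the full Zap1 element ACCTTNAAGGT.
ZRT1, chrVII:20765-20793, plus strand: acatatttgACCTTGAAGGTcatggaaag
ZRG17, chrXIV:699496-699524, minus strand: aaatgatgaACCTTGAAGGTatttttgtt
The iron genes FET3, FTR1 and SIT1 hold GCACCC, the core bound by Aft1.
FET3, chrXIII:388560-388589, plus strand: atcttcaaaagtGCACCCatttgcaggtgc
FTR1, chrV:461897-461926, minus strand: gcgtagatgaatGCACCCgatttctaagtt
SIT1, chrV:27457-27486, plus strand: gaacacatttgaGGGTGCaatctggttcgt
DHR2 and ALB1, of ribosome assembly, hold the PAC core GATGAG, and ALB1 also the RRPE core AAAATTTT.
DHR2, chrXI:288757-288786, plus strand: aaaattctgctcGATGAGatgagatgaggt
ALB1, chrX:189663-189692, plus strand: gcggcattagtcGATGAGgtgcttgccgaa
ALB1, chrX:189604-189633, plus strand: tttttttcgctAAAATTTTcatagagagta
TSL1, of trehalose synthesis, holds the stress element AGGGG, and the mating genes AGA1 and SST2 hold the Ste12 element TGAAACA.
TSL1, chrXIII:70447-70475, plus strand: ggggtagaaccaAGGGGctagcacactca
AGA1, chrXIV:703486-703514, plus strand: acataattttcTGAAACAatattaaaaca
SST2, chrXII:1041594-1041622, minus strand: atattcaatttTGAAACAatgatcccaat

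Levels are given as CPM, counts scaled to a common library total with the TMM factors of edgeR and not corrected for gene length. Values with ± are means and SDs of 3 libraries unless marked SE. An SE is the size of the log2 fold change divided by the square root of edgeR's F statistic. It comes from the fit to all 15 libraries. The 3 DMSO libraries held 11374294, 21282576 and 15133126 counts, and the 3 untreated libraries held 7892004, 9010837 and 9233290. Rank correlations across genes were 0.970 to 0.985 among DMSO libraries and 0.987 to 0.992 among untreated libraries, and the median within-group SD of log2 CPM was 0.208 in the DMSO group and 0.151 in the untreated group. As a check of cell type, the 7 markers of yeast a cells summed to between 1234 and 1501 CPM in the DMSO libraries and between 2275 and 2575 CPM in the untreated libraries. DMSO libraries were the deeper group, and the part of depth in the results was not tested. The 4 markers of alpha cells summed to between 27.7 and 39.9 CPM after DMSO and between 34.8 and 43.5 CPM in untreated cells.

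Of 6069 genes tested, 2193 (36.1%) differed at an adjusted p under 0.05 by edgeR's quasi-likelihood test over all 15 libraries. DMSO was higher in 1069 (17.6%) and lower in 1124 (18.5%). Of these, 236 rose and 160 fell by at least 1 on the log2 scale, which is a doubling or a halving. Among all tested genes, every DMSO library lay above every untreated one in 1353 and below every untreated one in 1426. The median log2 fold change of all tested genes was 0.01 with TMM scaling, which assumes that most genes do not change. Scaling by total counts alone moved that median to 0.21 and turned the split into 1782 higher and 620 lower among 2402 called genes. Many list counts are therefore given below under both scalings, and the rest with TMM alone. The rest can move too: with total counts 10 zinc genes, 16 under nitrogen catabolite repression and 12 of the unfolded protein response rose. TMM gave 8, 14 and 9. Of the pyrimidine genes 5 fell with total counts, against 7 with TMM.

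**Figure D1:**
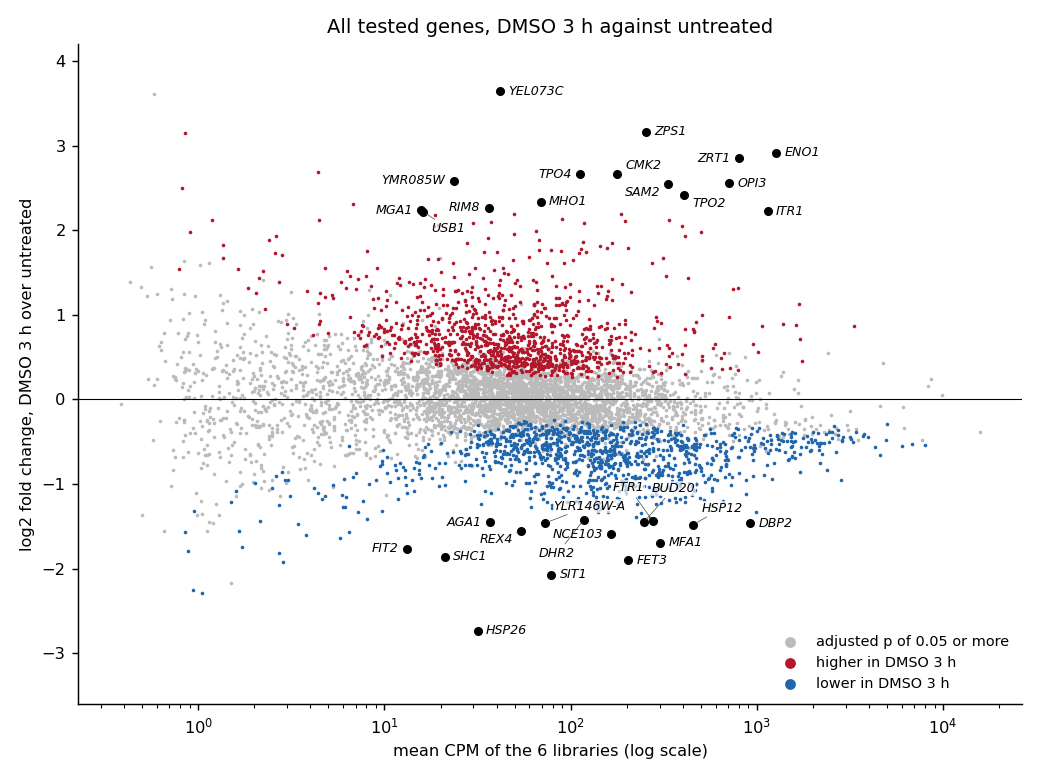
Log2 fold change (DMSO 3 h over untreated) of each of the 6069 tested genes against its mean CPM over the 6 libraries on a log axis; red genes were called higher, blue genes lower, and grey genes not called. Black points with names are the 15 largest rises, between 2.22 and 3.64, and the 15 largest falls, between -2.73 and -1.43, among called genes of at least 10 CPM whose groups did not overlap.

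The tagged gene was read first. ZPR1 encodes a zinc-finger protein that helps newly made eEF1A, the carrier of aminoacyl-tRNA to the ribosome, to fold. ZPR1 transcripts stood at 80.1, 52.7 and 151 CPM in DMSO libraries, against 121, 186 and 152 CPM in untreated libraries. DMSO library 3 lay inside the untreated range and the groups overlapped (log2 fold change -0.70 ± 0.30 SE, adjusted p = 0.0789). Without that library the log2 difference was -1.21 (adjusted p = 0.00178, edgeR). TEF1 and TEF2, the near-identical genes for eEF1A between which reads may be shared, averaged 3540 ± 354 and 3468 ± 1072 CPM after DMSO, against 5585 ± 423 and 5126 ± 576 CPM in untreated cells. TEF1 fell (log2 fold change -0.66 ± 0.11 SE, adjusted p = 0.000282). TEF2 fell too (log2 fold change -0.56 ± 0.19 SE, adjusted p = 0.0287), but its call was lost without DMSO library 2 (adjusted p = 0.101) and without untreated library 2 (0.0718) or 3 (0.129), with total-count scaling (log2 fold change -0.37, adjusted p = 0.088) and with only the compared groups in the fit (0.0679).

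The largest rise was that of YEL073C. This gene, an open reading frame without an assigned function here (YEL073C, chromosome V, 7230 to 7553, minus strand), stood at 67.5, 99.8 and 64.2 CPM in DMSO libraries, against 8.93, 5.78 and 3.95 CPM in untreated libraries and rose 12.5-fold (log2 fold change 3.64 ± 0.27 SE, adjusted p = 3.63e-07). ENO1, an enolase of glycolysis (YGR254W, chromosome VII, 1000927 to 1002240, plus strand) had 2217, 2307 and 2189 CPM in DMSO libraries, against 257, 359 and 274 CPM in untreated libraries, a 7.54-fold rise with an adjusted p of 1.13e-08. The 3 DMSO values lay close together and far above the highest untreated value. CMK2, a calmodulin-dependent protein kinase, rose 6.32-fold to 307 ± 53.3 CPM after DMSO, against 48.6 ± 9.98 CPM in untreated cells. The polyamine exporters TPO4 and TPO2 rose 6.31-fold and 5.34-fold, and TPO2 shares long stretches with TPO3. RIM8, of the signalling route for alkaline pH, rose 4.8-fold, and MGA1, which resembles the heat shock factor, rose 4.72-fold. YMR085W, MHO1 and USB1, a nuclease that trims U6 RNA, rose 6-fold, 5.05-fold and 4.65-fold. In the window of 500 bases before the start, 8 of the 15 largest rises held CATGTG on either strand, and none of the 15 largest falls did. These 15 rises were picked by size and include known Ino2/Ino4 targets. Over all 1058 genes called higher that had such a window the share was 16.7%, against 12% of genes called lower and 13.1% of all genes. Other elements also lay in these extremes. The stress element AGGGG was in 10 of the rises and 6 of the falls, against 34.2% of all genes. GCACCC was in 1 rise and 6 falls, against 7.6% of all genes. Over all called genes its share was 6.52% of those higher and 6.92% of those lower. GATGAG was in 4 rises and 7 falls, against 27.9% of all genes. The falls were picked by size too and include iron genes.

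The 15 largest falls included small heat shock, iron, mating and ribosome assembly genes. HSP26, a small heat shock protein (YBR072W, chromosome II, 382030 to 382674, plus strand), stood at 7.03, 9.91 and 7.63 CPM in DMSO libraries, against 64.2, 79.2 and 21.6 CPM in untreated libraries, a 6.65-fold fall (log2 fold change -2.73 ± 0.39 SE, adjusted p = 6.01e-05). Untreated library 3 was the lowest of its group, and still above every DMSO library. HSP12, a membrane-stabilising stress protein, was 2.8-fold lower at 236, 352 and 127 CPM in DMSO libraries, against 742, 740 and 520.4 CPM in untreated libraries. The iron genes SIT1, FET3, FIT2 and FTR1 are described with iron below, and the mating genes MFA1 and AGA1 with mating. SHC1, which activates a chitin synthase, fell 3.62-fold to 9.03 ± 2.11 CPM after DMSO, against 33.0 ± 0.785 CPM in untreated cells. NCE103, the carbonic anhydrase, fell 3.01-fold and its DMSO libraries were uneven, at 68.3, 54.1 and 125 CPM, against 306, 263 and 177 CPM in untreated libraries. REX4, a putative RNA exonuclease, BUD20, of large-subunit export, DBP2 and DHR2, RNA helicases, and the small open reading frame YLR146W-A fell by between 2.69-fold and 2.94-fold.

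Gene lists of known pathways put these genes in context, and each list's count is read against 17.6% higher and 18.5% lower among all genes. Ribosome assembly and the polymerases that make ribosomal and transfer RNA lay at the bottom, and phospholipid synthesis, storage carbohydrate, weak acid and autophagy genes at the top.

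**Figure D2:**
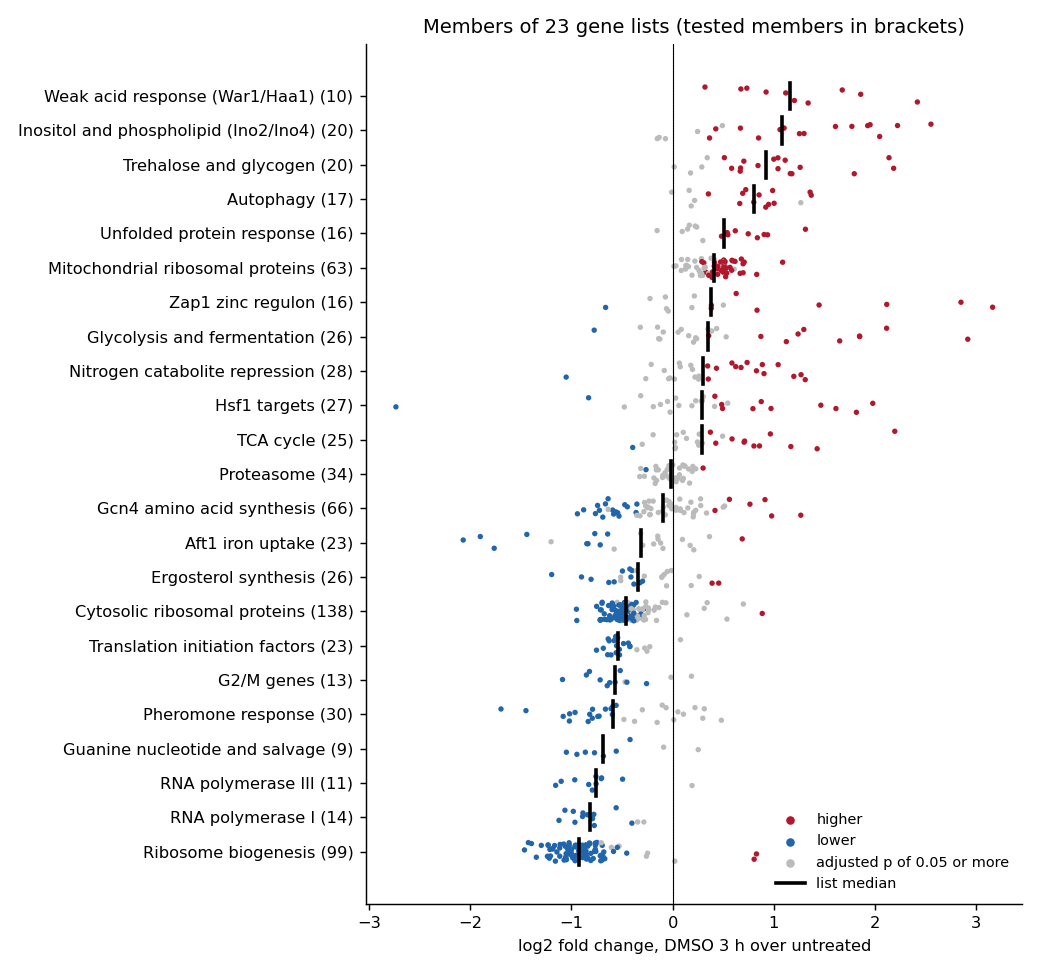
Log2 fold change (DMSO 3 h over untreated) of each tested member of 23 gene lists, with the number tested in brackets and the list's median as a black bar; red members were called higher, blue lower, grey not called. List medians run from -0.92 for ribosome biogenesis to 1.16 for the weak acid response, against 0.01 for all genes.

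Phospholipid synthesis genes rose as a group. Of 20 Ino2/Ino4 genes tested, 15 were higher and none lower, with a median log2 fold change of 1.08, and total-count scaling gave 16 and none. All 4 genes of the route that makes phosphatidylcholine by methylation rose. CHO1, which makes phosphatidylserine, had 673, 576 and 699.9 CPM in DMSO libraries, against 196, 199.9 and 117 CPM in untreated libraries. PSD1, which decarboxylates phosphatidylserine, had 97.1, 100 and 138 CPM in DMSO libraries, against 41.9, 35.4 and 32.6 CPM in untreated libraries. Both groups were compact and apart, and CHO1 rose 3.8-fold and PSD1 3.05-fold (adjusted p = 2.01e-06 and 1.12e-05, edgeR). CHO2, the first methyltransferase, stood at 635, 755 and 529 CPM in DMSO libraries, against 193, 149.6 and 123 CPM in untreated libraries. OPI3, the second one, stood at 1148, 1200 and 1268 CPM in DMSO libraries, against 216, 252 and 149 CPM in untreated libraries. The rise was 4.13-fold for CHO2 and 5.86-fold for OPI3 (log2 fold change 2.55 ± 0.22 SE, adjusted p = 1.02e-06). SAM2, one of the enzymes that make the methyl donor S-adenosylmethionine, was not on this list and also rose, to 572 ± 191 CPM after DMSO, against 98.0 ± 43.7 CPM in untreated cells.

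On the side of inositol itself, ITR1, the main inositol importer, had 1779, 1976 and 1882 CPM in DMSO libraries, against 467, 457 and 284 CPM in untreated libraries, a 4.66-fold rise. INO1, named here for its known role and after its values were seen, had 92.1, 121 and 100.3 CPM in DMSO libraries, against 30.3, 38.3 and 23.3 CPM in untreated libraries (log2 fold change 1.77 ± 0.23 SE, adjusted p = 2.71e-05). ITR2, the minor importer, and INM1, an inositol monophosphatase, did not pass, at 169.8 ± 19.0 and 84.9 ± 10.7 CPM after DMSO against 189 ± 19.9 and 93.1 ± 4.25 CPM in untreated cells. In the choline and ethanolamine route 5 of 6 genes rose. The choline kinase CKI1 was 3.87-fold higher, and the transferases CPT1 and EPT1 were 2.38-fold and 2.46-fold higher. PCT1, which activates phosphocholine in the same route, overlapped between groups at 70.9 ± 19.5 CPM after DMSO and 59.8 ± 11.8 CPM in untreated cells (adjusted p = 0.342, edgeR). OPI10, grouped with the regulators, stood at 29.2 ± 8.63 CPM after DMSO and 20.7 ± 3.73 CPM in untreated cells (adjusted p = 0.056, or 0.0164 without DMSO library 2 and 0.0296 without untreated library 2). CKI1 and its divergent neighbour USB1, which share the promoter match printed above, rose by 1.95 and 2.22 on the log2 scale. The element CATGTG lay within 500 bases before the start in 13 of the 20 listed genes (65%).

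Metal uptake genes split by metal: of those that passed, all but 1 zinc gene were higher and all but 1 iron gene lower after DMSO. Of 16 Zap1 genes, 8 rose and 1 fell, with a median log2 fold change of 0.38. ZRT1 (YGL255W, chromosome VII, 20978 to 22108, plus strand) stood at 1158, 1061 and 1993 CPM in DMSO libraries, against 119.5, 182 and 283 CPM in untreated libraries, a 7.2-fold rise (log2 fold change 2.85 ± 0.32 SE, adjusted p = 7.42e-06). DMSO library 3 was the highest of its group, and the lowest DMSO library was still well above all untreated libraries. ZPS1, a cell-surface protein related to fungal zinc scavengers, had 388, 412 and 575 CPM in DMSO libraries, against 49.5, 63.8 and 40.4 CPM in untreated libraries, an 8.94-fold rise. ADH4, an alcohol dehydrogenase that lies near ZRT1 on chromosome VII, had 469.6, 709.6 and 458 CPM in DMSO libraries, against 122, 122 and 134 CPM in untreated libraries. ZAP1, the activator, which acts on its own promoter, rose 2.73-fold to 26.7, 35.9 and 41.2 CPM after DMSO, against 12.3, 10.5 and 15.3 CPM. GPP2, of glycerol synthesis, DPP1, a lipid phosphatase, and ZRT3, the vacuolar exporter of zinc, rose by 0.83, 0.63 and 0.38 on the log2 scale, and the ZRT3 groups overlapped. The ZRT3 call was lost without DMSO library 3 or untreated library 1 or 2, or with only the compared groups (adjusted p between 0.0605 and 0.12). IZH1, a membrane protein of zinc balance, was the member that fell (log2 fold change -0.66 ± 0.16 SE, adjusted p = 0.00507). ZRC1, which stores zinc in the vacuole, had a log2 fold change of -0.22 (adjusted p = 0.253, or 0.0383 without DMSO library 3, which left 2 members lower). ZRG17, the other listed gene with the full element, had 0.19 (adjusted p = 0.173). That element occurred in 9 of 5787 promoter windows (0.156%).

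Iron genes moved the other way. Of 23 Aft1 genes, 9 fell and 1 rose, with a median of -0.32. With total-count scaling 6 fell and 2 rose, and 2 rose without untreated library 2, by DESeq2, with a mean of at least 10 CPM or under the replicate block. SIT1, a transporter of iron chelated by siderophores (YEL065W, chromosome V, 27657 to 29543, plus strand), had 32.7, 27.5 and 31.0 CPM in DMSO libraries, against 135, 114 and 133 CPM in untreated libraries, a 4.2-fold fall. FET3, the copper-dependent oxidase of high-affinity uptake, had 92.3, 77.1 and 88.0 CPM in DMSO libraries, against 278, 302 and 380.4 CPM in untreated libraries, and its partner permease FTR1 had 159, 115 and 174 CPM in DMSO libraries, against 370.5, 403 and 441 CPM in untreated libraries. They fell 3.73-fold and 2.71-fold (adjusted p = 0.00121 and 0.000105, edgeR). FIT2, a cell-wall protein that holds siderophores, fell 3.39-fold. The siderophore transporters ARN1 and ENB1 and the heme oxygenase HMX1 fell by between 1.56-fold and 1.8-fold, and the calls of ENB1 and HMX1 were lost with total-count scaling (adjusted p = 0.0526 and 0.0517). FRE1, the main surface reductase, was below every untreated library but did not pass (73.6, 96.5 and 141 CPM after DMSO, against 237, 198 and 282 CPM, adjusted p = 0.0539, or 0.0376 without DMSO library 3). FRE5, a putative reductase, was the member that rose (log2 fold change 0.69 ± 0.16 SE, adjusted p = 0.00384). None of 4 copper uptake genes tested changed at this threshold, and 1 rose with total-count scaling.

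**Figure D3:**
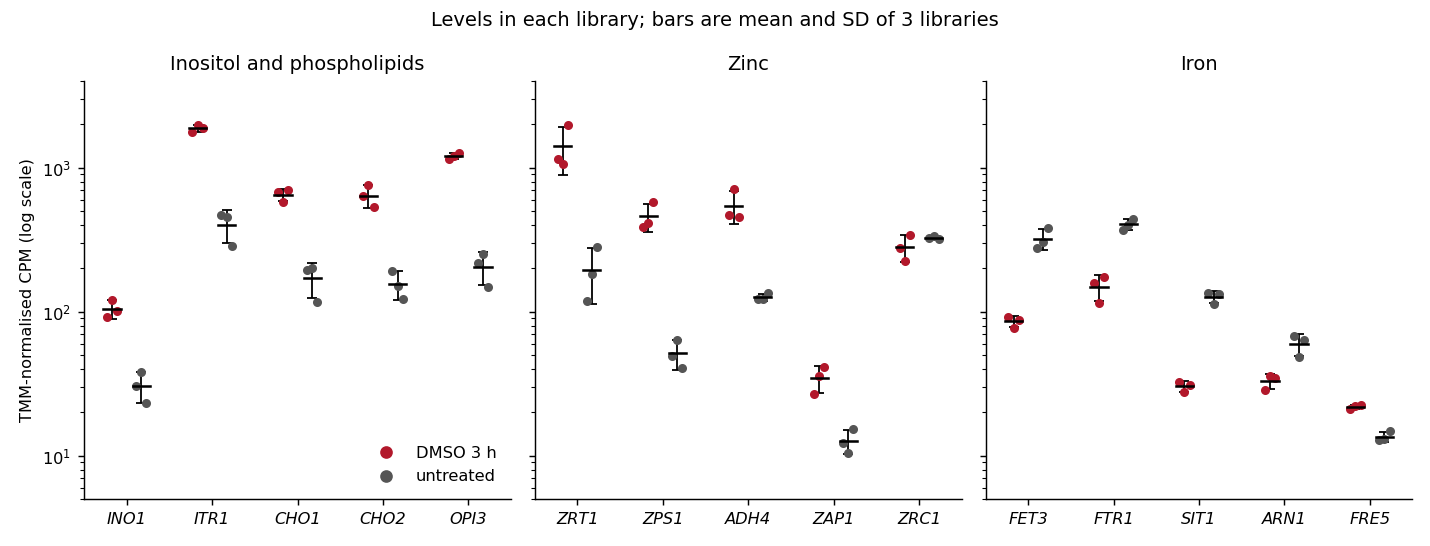
TMM-normalised CPM of 5 phospholipid, 5 zinc and 5 iron genes in each library on a log axis, with DMSO 3 h libraries in red to the left of untreated libraries in grey and black bars for mean and SD of 3. The groups do not overlap for OPI3 (1148 to 1268 against 149 to 252 CPM), ZRT1 and SIT1, while ZRC1 overlaps.

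Genes for making ribosomes fell nearly throughout. Of 99 ribosome biogenesis genes, 91 fell and 2 rose, with a median log2 fold change of -0.92, and total-count scaling gave 89 and 2. Of the 39 genes of the small-subunit processome 37 fell, and of the 54 genes of large-subunit assembly 53 fell (medians -0.86 and -1.01). ALB1, a shuttling factor of the large subunit, had 145, 142 and 114 CPM in DMSO libraries, against 342, 318 and 361 CPM in untreated libraries (log2 fold change -1.35 ± 0.11 SE, adjusted p = 7.29e-07). DHR2, a helicase of small-subunit processing, had 69.7, 54.9 and 66.3 CPM in DMSO libraries, against 168, 156 and 188 CPM in untreated libraries. RSA4, RPF2, ARX1 and the helicase DBP10, which act on the large subunit, fell by between 1.95-fold and 2.35-fold. KRR1 and the helicase DBP8, which act on the small subunit, fell 2.33-fold and 2.46-fold. NOP56, of the snoRNA particles that methylate ribosomal RNA, was uneven among DMSO libraries at 178, 99.0 and 282 CPM, against 262, 377 and 273 CPM in untreated libraries, and did not pass (adjusted p = 0.0611, or 0.00297 without DMSO library 3). The 2 listed genes that rose were STB3 and DOT6, which encode proteins that bind RRPE and PAC and repress these genes. DOT6 had 121, 169.7 and 161 CPM in DMSO libraries, against 80.4, 85.2 and 89.2 CPM in untreated libraries, and STB3 rose 1.75-fold.

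The polymerases followed. Of 14 RNA polymerase I genes 12 fell (median -0.82), and of 11 RNA polymerase III genes 10 fell (median -0.76). Total-count scaling gave 11 lower for the first list, and 10 lower and 1 higher for the second. RPA43, a polymerase I subunit, had 149.8, 99.97 and 129.8 CPM in DMSO libraries, against 250.3, 275 and 267 CPM in untreated libraries. RPA190, the largest subunit, fell 1.85-fold, and RRN3, which recruits polymerase I to the rDNA, fell 1.85-fold. The polymerase III subunits RPC53 and RPC25 fell 2.23-fold and 2.15-fold. The member of that list that did not fall was MAF1, the repressor of polymerase III, at 48.5 ± 1.83 CPM after DMSO and 42.5 ± 6.52 CPM in untreated cells. UAF30, of a polymerase I initiation factor, was lower in every DMSO library but did not pass (adjusted p = 0.102).

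Cytosolic ribosomal protein genes were also lower, with a median closer to 0. Of 138 genes, 91 fell and 1 rose, with a median of -0.46, and this count depended on scaling and on 1 library: 38 fell with total-count scaling and 52 without untreated library 3. RPL33B and RPS10A, each 1 of a pair of gene copies, fell 1.93-fold and 1.68-fold, at 415 ± 34.7 and 1626 ± 125 CPM after DMSO, against 800.4 ± 86.2 and 2737 ± 282 CPM in untreated cells. RPL30, of the large subunit, did not pass (log2 fold change -0.41 ± 0.16 SE, adjusted p = 0.0508; 0.0363 without DMSO library 3). The gene that rose, RPL33A, had 10.8, 18.3 and 7.32 CPM after DMSO, against 6.47, 6.84 and 6.50 CPM, and its call was lost without DMSO library 2 or without any 1 of the untreated libraries (adjusted p between 0.061 and 0.221). Of 23 translation initiation factors 18 fell (median -0.54), or 8 with total-count scaling. The cap-binding factor CDC33 fell 1.56-fold and TIF34, of eIF3, fell 1.69-fold. Of 10 elongation factor genes 6 fell and 1 rose, or 3 and 2 with total-count scaling, 3 fell without untreated library 3 or with only the compared groups, and none rose without untreated library 2 or with a mean of at least 10 CPM. Among them YEF3, the fungal elongation factor 3, fell to 4859 ± 884 CPM after DMSO, against 7137 ± 159 CPM. EFB1 and EFT2 fell 1.57-fold and 1.32-fold. EFB1 overlaps another annotated gene, and EFT2 has a near-identical copy and lost its call with total-count scaling, with only the compared groups and without DMSO library 3 or untreated library 2 or 3 (adjusted p between 0.0575 and 0.22).

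Mitochondrial ribosomal protein genes, by contrast, rose: 37 of 63 were higher and none lower, with a median of 0.41. Total-count scaling gave 49, and leaving out untreated library 3 gave 24. MRPL22 had 153, 142 and 141 CPM in DMSO libraries, against 87.9, 106 and 81.3 CPM in untreated libraries, a 1.59-fold rise, and MRPL1, MRPL13 and MRPL31 rose between 1.42-fold and 1.53-fold. MRPL19, which overlaps another gene, did not pass (81.7, 72.1 and 44.8 CPM after DMSO, against 46.5, 47.0 and 36.8 CPM, adjusted p = 0.0681, or 0.0138 without DMSO library 3). None of the 10 genes encoded in mitochondrial DNA passed (1 rose without DMSO library 3), and the groups overlapped in the share of counts they took, at 0.162%, 0.102% and 0.0446% in DMSO libraries and 0.0738%, 0.0854% and 0.0432% in untreated libraries.

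**Figure D4:**
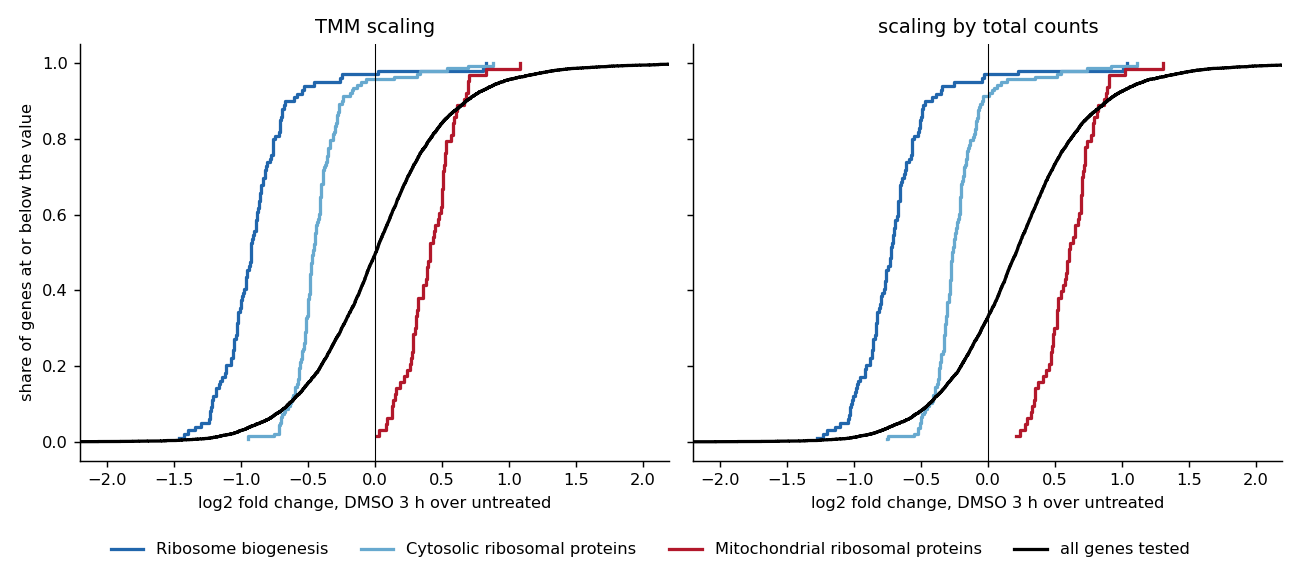
Cumulative share of genes (y axis) at or below each log2 fold change, DMSO 3 h over untreated (x axis), for 3 ribosome lists and for all tested genes, with TMM scaling on the left and total-count scaling on the right. Ribosome biogenesis lies left of cytosolic ribosomal proteins and both lie mostly left of all genes in either panel, while mitochondrial ribosomal proteins lie mostly to the right, and the all-gene median is 0.01 with TMM and 0.21 with total counts.

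The promoter elements of ribosome assembly were common among genes that fell. Within 500 bases before the start, GATGAG on either strand lay in 45.8% of genes called lower, 20.6% of genes called higher and 27.9% of all genes. AAAATTTT, which is its own reverse complement, lay in 32.3% of genes called lower, 5.58% of genes called higher and 12.9% of all genes. In the ribosome biogenesis list 86.9% held the first element (PAC) and 75.8% the second (RRPE), while 22.5% of cytosolic ribosomal protein genes held the first. The stress element lay in 27.8% of genes called lower, 48% of genes called higher and 34.2% of all genes. Windows of neighbouring divergent genes overlap, and a match of so few letters does not show that a factor binds.

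Most genes of guanine nucleotide synthesis and salvage fell. Of 9 guanine nucleotide and salvage genes 7 fell (median -0.68). AAH1, the adenine deaminase, had 465, 339.6 and 321 CPM in DMSO libraries, against 692, 747 and 891 CPM in untreated libraries, and GUA1, the GMP synthase, fell 1.93-fold. Of 12 pyrimidine genes 7 fell and 2 rose (median -0.55). The CTP synthase URA7 fell to 309, 204 and 335 CPM after DMSO, against 598, 624 and 627 CPM, and the uracil permease FUR4 fell 1.96-fold. The other CTP synthase gene, URA8, rose 1.57-fold (95.2, 100.3 and 124 CPM in DMSO libraries, against 64.5, 73.6 and 65.4 CPM in untreated libraries). Only 1 pyrimidine gene rose without DMSO library 1 or 3, without any 1 of the untreated libraries or with only the compared groups.

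Storage carbohydrate genes rose together. Of 20 trehalose and glycogen genes 16 were higher and none lower, with a median log2 fold change of 0.92. All 7 trehalose genes rose. TSL1, a regulatory subunit of trehalose synthase, had 124, 173 and 139.5 CPM in DMSO libraries, against 35.2, 42.4 and 21.8 CPM in untreated libraries (log2 fold change 2.14 ± 0.23 SE, adjusted p = 6.08e-06). TPS2, the trehalose phosphatase, had 273, 336 and 336 CPM in DMSO libraries, against 93.1, 114 and 65.2 CPM in untreated libraries. The synthase TPS1 and the subunit TPS3 rose 2.26-fold and 2.24-fold, and the trehalases NTH1 and ATH1, which break trehalose down, rose 1.59-fold and 2-fold. The glycogen synthase GSY1 had 20.6, 35.7 and 34.9 CPM in DMSO libraries, against 6.86, 9.67 and 3.60 CPM in untreated libraries, and GSY2, the other synthase, rose 2.16-fold. In each of these genes, which were named by smallest p, every DMSO library lay above every untreated one. That held in 16 of the 20 listed genes and in 1353 of all 6069 tested. In 80% of these genes AGGGG lay within 500 bases before the start.

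In glycolysis and fermentation, 10 of 26 genes rose and 1 fell, with a median of 0.35, and 17 rose with total-count scaling. Several that rose encode one form of an enzyme that has other forms. TDH1, a glyceraldehyde-3-phosphate dehydrogenase, had 245, 402 and 308 CPM in DMSO libraries, against 72.5, 72.2 and 75.8 CPM in untreated libraries. GLK1, the glucokinase, which overlaps another annotated gene, rose 3.6-fold, PYK2, a pyruvate kinase, 2.46-fold, and the alcohol dehydrogenase ADH5 3.14-fold. TPI1, the single triosephosphate isomerase gene, rose 1.83-fold. FBA1 and PDC1, the aldolase and the main pyruvate decarboxylase, did not pass, at 9265 ± 1371 and 5461 ± 1567 CPM after DMSO, against 7863 ± 457 and 4041 ± 646 CPM. Both passed with total-count scaling and without DMSO library 2 (adjusted p between 0.00411 and 0.0368). ADH2, the alcohol dehydrogenase of ethanol use, fell 1.71-fold. Of 19 hexose transporters and sensors 6 rose and none fell (1 fell without DMSO library 2 or untreated library 3), HXT4 with 172, 171 and 166 CPM in DMSO libraries, against 54.5, 65.7 and 33.7 CPM in untreated libraries, HXT3 by 1.83-fold, and MTH1, a repressor of transporter genes, by 2.43-fold.

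Of 25 TCA cycle genes 11 rose and 1 fell, a fall that was lost with total-count scaling, no filter or only the compared groups and without DMSO library 1 or 2 or untreated library 2 or 3. CIT2, the peroxisomal citrate synthase, had 279, 314 and 319 CPM in DMSO libraries, against 66.5, 86.5 and 46.3 CPM in untreated libraries, and its mitochondrial counterpart CIT1 rose 2.69-fold. Aconitase (ACO1) and succinate dehydrogenase (SDH1) rose 1.75-fold and 2.25-fold. Of 38 respiratory chain and ATP synthase genes 7 rose and 1 fell, the fall being lost without untreated library 2, and the NADH dehydrogenase NDI1 rose 2.05-fold. Of 17 genes of gluconeogenesis and the glyoxylate cycle 3 rose and 1 fell, and of 10 glucose-repressed sugar genes 1 rose. With total-count scaling 16 TCA cycle genes, 18 respiratory genes, 6 gluconeogenesis and glyoxylate genes and 2 sugar genes rose.

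Stress genes did not move as 1 block. Of 35 Msn2/4 genes, 15 rose and 5 fell (3 with a mean of at least 10 CPM), with a median of 0.33. HSP30, a membrane protein that restrains the proton pump, rose 3.62-fold to 134, 161 and 254 CPM after DMSO, against 64.7, 60.9 and 25.9 CPM. GPD1, of glycerol synthesis, rose 3.37-fold, PNC1, the nicotinamidase, 2.26-fold and GRE3, an aldose reductase, 2.17-fold, while HSP12 and HSP26 were among the largest falls. Of 27 Hsf1 targets 10 rose and 2 fell, with 16 higher under total-count scaling and 4 lower without DMSO library 3. HSP104, the protein disaggregase, had 723, 843 and 822 CPM in DMSO libraries, against 232, 238 and 136 CPM in untreated libraries, and HSP82, the inducible Hsp90, had 338, 486 and 411 CPM in DMSO libraries, against 118, 134 and 152 CPM in untreated libraries. HSP78, the mitochondrial disaggregase, rose 3.52-fold and the small heat shock protein HSP42 rose 2.76-fold. SSE1, a nucleotide exchange factor of Hsp70, fell (log2 fold change -0.83 ± 0.19 SE, adjusted p = 0.00331). All 10 genes of the weak acid response rose (median 1.16), a list that includes HSP30 and TPO2. The acid anion exporter PDR12 had 108, 136 and 116 CPM in DMSO libraries, against 43.4, 43.9 and 55.2 CPM in untreated libraries, and YRO2, a membrane protein related to HSP30, rose 3.19-fold. The kinase HRK1 and the cell-wall protein SPI1 rose 2.17-fold and 1.9-fold. Of 17 pleiotropic drug response genes 8 rose and 2 fell, among them the exporter SNQ2 (1.59-fold lower), and only 1 fell with total-count scaling or without DMSO library 1 or 2 or untreated library 3.

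The unfolded protein response list rose in 9 of 16 genes and fell in none, with a median of 0.51. KAR2, the ER chaperone of the Hsp70 family, had 1222, 1266 and 909 CPM in DMSO libraries, against 436, 395 and 537 CPM in untreated libraries, a 2.48-fold rise. HAC1, its activator, whose activity is set by splicing that these counts do not show, rose 1.87-fold, and DER1, of ER protein disposal, 1.92-fold. PDI1, the disulfide isomerase, did not pass (log2 fold change 0.30 ± 0.13 SE, adjusted p = 0.0744, or 0.0241 without DMSO library 2 and 0.0406 without untreated library 3). Of 14 genes for the CCT chaperonin and prefoldin, which fold actin and tubulin, 11 fell (median -0.49), a count that was 2 with total-count scaling, 7 with only the compared groups in the fit, and 6 without DMSO library 2 or without untreated library 2 or 3. Of 34 proteasome genes 1 rose and 1 fell. With total-count scaling 7 rose and none fell, and with only the compared groups none rose or fell. Without DMSO library 3 none rose and 3 fell, none rose without untreated library 1 or 2, and none fell without DMSO library 1 or untreated library 2 or 3, with no filter or with robust estimation.

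Genes for taking up and recycling nitrogen rose in part. Of 28 genes under nitrogen catabolite repression, 14 rose and 1 fell, with a median of 0.30. GAP1, the general amino acid permease, had 1042, 1092 and 1029 CPM in DMSO libraries, against 411, 390.5 and 474 CPM in untreated libraries, a 2.48-fold rise. The ammonium permease MEP1, the proline oxidase PUT1 and UGA2, of GABA use, rose between 1.85-fold and 2.41-fold, and the arginase CAR1 fell 2.07-fold. Autophagy genes rose in 12 of 17 cases and fell in none (median 0.80). ATG8, the protein that coats autophagosomes, had 26.8, 27.2 and 23.1 CPM in DMSO libraries, against 10.9, 10.2 and 9.06 CPM in untreated libraries, and ATG7, the enzyme that activates it, had 20.4, 20.4 and 20.8 CPM in DMSO libraries, against 7.90, 9.67 and 6.27 CPM in untreated libraries. ATG1 and ATG3 rose 1.98-fold and 2-fold, while ATG9 overlapped between groups (adjusted p = 0.423). The vacuolar proteases PRB1 and APE1 rose 2.31-fold and 2.17-fold, 2 of the 6 protease genes tested, or 4 with total-count scaling, and 1 fell without DMSO library 3 or by DESeq2.

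Amino acid and lipid genes were mixed. Of 66 Gcn4 target genes of amino acid synthesis 18 fell and 6 rose (median -0.09), and total-count scaling turned this into 10 and 17. Leaving out DMSO library 2 left 11 lower and leaving out untreated library 3 left 10. ARG4 and HIS4 rose 1.97-fold and 1.88-fold, and SER3, which overlaps a regulatory transcript, rose 2.4-fold, while ILV5, of branched-chain synthesis, fell 1.92-fold. The amino acid permeases DIP5 and BAP3 rose 2.43-fold and 1.97-fold, among 3 higher and 2 lower of 15 permease genes, 1 lower with total-count scaling, no filter or only the compared groups, or when any 1 library but DMSO library 3 was left out. Of 27 methionine and sulfur genes 7 rose and 2 fell. MET6, the methionine synthase, had 640.2, 732 and 494 CPM in DMSO libraries, against 291, 232 and 168 CPM in untreated libraries, and SAM3, which imports S-adenosylmethionine, rose 2.54-fold, while STR3 fell 2.16-fold. Without untreated library 1 the count that rose was 4, and without DMSO library 3 the count that fell was 5. DMSO itself is reduced by methionine sulfoxide reductases with thioredoxin. None of the 3 genes for these reductases passed. Of 5 genes of the thioredoxin system 3 fell and 1 rose. TRX1 was among those that fell, at 345 ± 28.6 CPM after DMSO against 586 ± 43.1 CPM in untreated cells. Of all 8 genes 1 fell with total-count scaling or without untreated library 1.

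The fatty acid synthase genes FAS1 and FAS2 rose 1.85-fold and 1.83-fold, and the elongase ELO1 fell 1.93-fold. Of the 10 genes of fatty acid synthesis 3 rose and 3 fell, and 1 fell with total-count scaling, with only the compared groups, or without DMSO library 1 or 2 or untreated library 1 or 2. Of 26 ergosterol genes 12 fell and 2 rose (median -0.34). ERG3, the sterol desaturase, had 375, 375 and 454 CPM in DMSO libraries, against 770.1, 919 and 1068 CPM in untreated libraries, and ERG5 fell 1.87-fold. The count of 12 was 5 with total-count scaling or with only the compared groups, 7 with no filter on low counts, and 6 without DMSO library 1 or 2 or untreated library 2 or 3. The count that rose was 4 with total-count scaling and 1 without DMSO library 2 or untreated library 1 or 2.

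Mating and division genes that passed with TMM scaling were lower, apart from histone genes. Of 30 pheromone response genes 17 fell and none rose, with a median of -0.59, and with total-count scaling 16 fell and 1 rose. MFA1, a gene for the a-factor pheromone, had 144, 146 and 137 CPM in DMSO libraries, against 369, 536 and 478 CPM in untreated libraries, a 3.24-fold fall. AGA1, the anchor of the mating agglutinin, had 18.6, 20.2 and 20.3 CPM in DMSO libraries, against 49.5, 51.6 and 60.6 CPM in untreated libraries. STE2, the receptor for alpha-factor, and BAR1, the protease that degrades it, fell 1.73-fold and 1.95-fold, and 6 of the 7 a-cell markers fell. STE12, the transcription factor of the pathway, had 70.2, 62.9 and 71.9 CPM in DMSO libraries, against 152, 118 and 145 CPM in untreated libraries, and SST2, which shuts the signal off, and FAR1, which arrests the cycle, fell 2.03-fold and 1.66-fold. In 73.3% of the listed genes TGAAACA lay within 500 bases before the start, against 11.8% of all genes. Of 13 G2/M genes 10 fell (median -0.57), the cyclin CLB2 with 92.0, 76.6 and 84.7 CPM in DMSO libraries, against 217, 156 and 165 CPM in untreated libraries, and the kinase CDC5 by 1.77-fold. Of 25 M/G1 genes 14 fell, among them the factor TEC1 (1.68-fold), and of 25 G1/S genes 10 fell, among them the cyclin CLN2 (1.52-fold) and RNR1, of ribonucleotide reductase (1.92-fold). With total-count scaling 6 G2/M genes fell, 5 M/G1 genes fell and 1 rose, and 4 G1/S genes fell and 2 rose. Of 10 histone genes 4 rose and none fell, the histone H3 gene HHT2 by 1.64-fold and the H4 gene HHF2, which has a near-identical copy, by 1.58-fold. The share of cells in each phase was not measured, and in bulk RNA fewer cells of a phase and less RNA per cell cannot be told apart.

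The DMSO libraries are also the 3 h reference of the study, so the same genes were read in 5-Ph-IAA 3 h libraries against them. Of 6069 genes 482 (7.94%) differed, 308 higher (5.07%) and 174 lower (2.87%) with 5-Ph-IAA. The 3 libraries of 5-Ph-IAA at 3 h were uneven: library 2 had 2530145 counts, against 6297003 in library 1 and 17044914 in library 3, and mitochondrially encoded genes took 4.62% of its counts, against 0.787% and 0.0165%. Without that library 324 genes differed, 234 higher and 90 lower, and without DMSO library 1 272 differed, 180 higher and 92 lower. The comparison of DMSO with untreated cells, which shares the fit, had 2201 changed genes without 5-Ph-IAA 3 h library 2. Both comparisons share the DMSO libraries, so values are set side by side without a verdict. Genes named for a rise with DMSO are read here against the same high DMSO values. High DMSO values by themselves lower the log2 differences of such genes, and their adjusted p-values by edgeR are not independent of the naming. Of the 20 phospholipid genes 9 were lower and 1 higher with 5-Ph-IAA, and between 6 and 10 were lower and at most 1 higher with 1 library left out. INO1 averaged 29.3 ± 7.86 CPM in 5-Ph-IAA 3 h libraries and 104 ± 15.1 CPM in DMSO libraries (log2 fold change -1.85 ± 0.23 SE, adjusted p = 0.00011). OPI3 averaged 607 ± 113 CPM in 5-Ph-IAA 3 h libraries and 1205 ± 60.6 CPM in DMSO libraries (log2 fold change -0.99 ± 0.21 SE, adjusted p = 0.0077), and the log2 differences of CKI1 and ITR1 were -0.96 and -0.68, the ITR1 call being lost with only the compared groups in the fit (adjusted p = 0.053). Of the 16 zinc genes 3 were lower and 2 higher. ZRT1 averaged 499.7 ± 156 CPM in 5-Ph-IAA 3 h libraries and 1404 ± 512 CPM in DMSO libraries, ZPS1 117 ± 59.0 CPM in 5-Ph-IAA 3 h libraries and 458 ± 102 CPM in DMSO libraries, and ADH4 93.5 ± 29.6 CPM in 5-Ph-IAA 3 h libraries and 546 ± 142 CPM in DMSO libraries. All 3 were lower with 5-Ph-IAA, by log2 differences of -1.49 for ZRT1, -1.99 for ZPS1 and -2.56 for ADH4 (adjusted p = 0.0055, 0.00606 and 2.49e-06). YEL073C averaged 30.7 ± 6.04 CPM in 5-Ph-IAA 3 h libraries and 77.2 ± 19.7 CPM in DMSO libraries, and YMR085W and TPO4 were also lower, with log2 differences of -1.15 and -0.73. Not all of the largest rises were lower: the ENO1 levels, given below, lay close together. Values of CMK2, TPO2, RIM8, MGA1, MHO1, USB1 and SAM2 in this comparison are not given here. None of the 99 ribosome biogenesis genes was higher and 3 were lower, a count that was 15 without DMSO library 2, 7 without 5-Ph-IAA library 3, 2 without DMSO library 3, 1 when 5-Ph-IAA library 2 was dropped and 0 when DMSO library 1 was. None of the 138 cytosolic ribosomal protein genes passed, with at most 2 lower when 1 library was left out. Of 63 mitochondrial ribosomal protein genes 21 were lower, or 8 once 5-Ph-IAA library 2 was left out, 13 once its library 1 was, and 9 once DMSO library 1 was. Of the 10 genes encoded in mitochondrial DNA 5 were higher (median log2 fold change 3.84), none without 5-Ph-IAA library 2 or without any 1 DMSO library, and 9 without 5-Ph-IAA library 3. The part of the uneven mitochondrial share in these counts was not tested. None of the 20 trehalose and glycogen genes passed, and TSL1 averaged 116 ± 28.03 CPM in 5-Ph-IAA 3 h libraries and 146 ± 24.7 CPM in DMSO libraries. Higher with 5-Ph-IAA were 22 of 27 Hsf1 targets, HSP82 with 1185 ± 97.9 CPM in 5-Ph-IAA 3 h libraries and 411 ± 74.2 CPM in DMSO libraries and HSP78 by 1.36 on the log2 scale, and 33 of 66 Gcn4 genes, HIS4 by 0.89 and ARG4 by 0.80. HSP12 averaged 1903 ± 95.2 CPM in 5-Ph-IAA 3 h libraries and 239 ± 113 CPM in DMSO libraries (log2 fold change 3.00 ± 0.27 SE, adjusted p = 4.14e-06), and this difference uses the same low DMSO values as its fall above.

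The 5-Ph-IAA time points, which share the untreated libraries, show where the DMSO values stand. OPI3 averaged 206 CPM untreated at 0 h, 266 CPM at 0.5 h, 521 CPM at 1.5 h and 607 CPM at 3 h of 5-Ph-IAA, with 1205 CPM at 3 h of DMSO. ZRT1 averaged 195 CPM untreated at 0 h, 159 CPM at 0.5 h, 314 CPM at 1.5 h and 499.7 CPM at 3 h of 5-Ph-IAA, with 1404 CPM at 3 h of DMSO. In both the DMSO level was above every 5-Ph-IAA time. ENO1 averaged 296 CPM untreated at 0 h, 594 CPM at 0.5 h, 909 CPM at 1.5 h and 2247 CPM at 3 h of 5-Ph-IAA, with 2238 CPM at 3 h of DMSO, and DHR2 averaged 171 CPM untreated at 0 h, 132 CPM at 0.5 h, 97.2 CPM at 1.5 h and 48.4 CPM at 3 h of 5-Ph-IAA, with 63.6 CPM at 3 h of DMSO. For these genes the DMSO and 5-Ph-IAA levels at 3 h lay close together. SIT1 averaged 127 CPM untreated at 0 h, 34.8 CPM at 0.5 h, 24.7 CPM at 1.5 h and 22.8 CPM at 3 h of 5-Ph-IAA, with 30.4 CPM at 3 h of DMSO, and AGA1 averaged 53.9 CPM untreated at 0 h, 20.2 CPM at 0.5 h, 15.3 CPM at 1.5 h and 14.6 CPM at 3 h of 5-Ph-IAA, with 19.7 CPM at 3 h of DMSO, so both means were low from the first time point on.

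**Figure D5:**
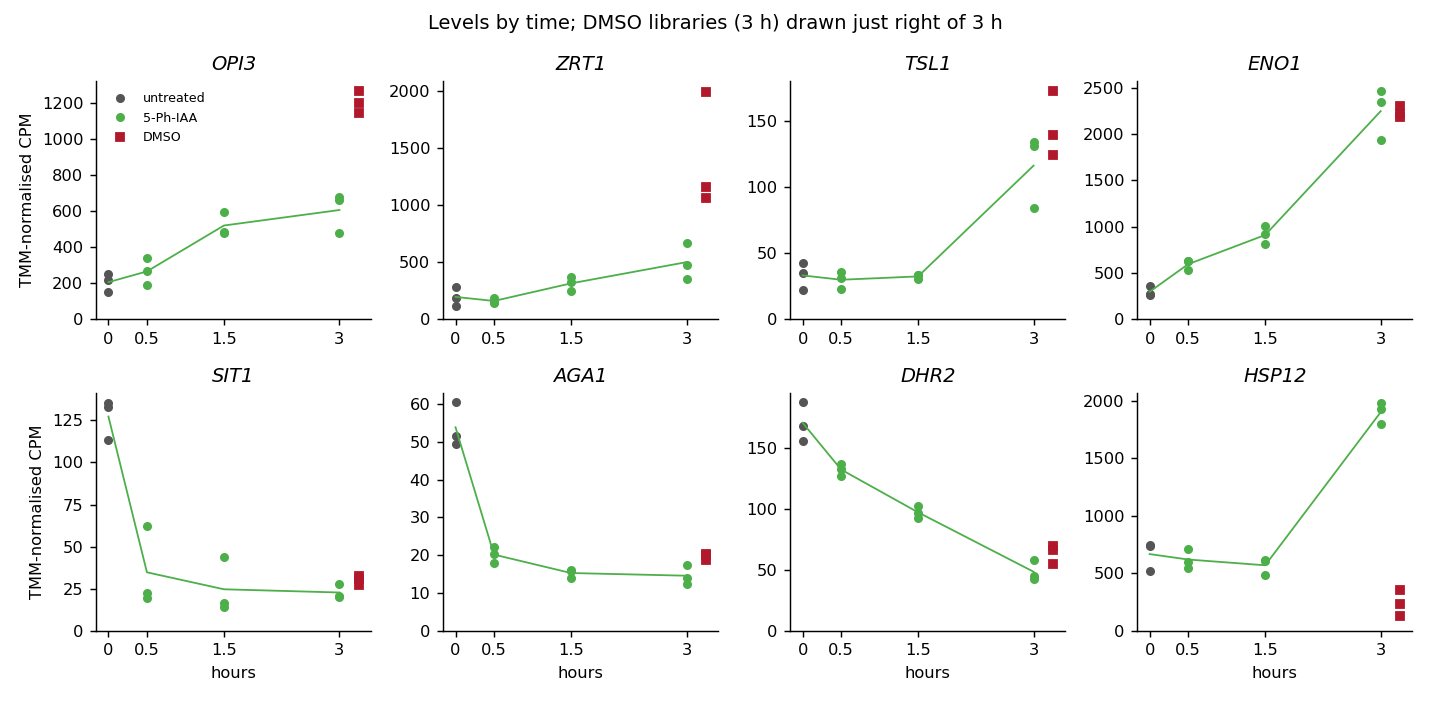
TMM-normalised CPM of 8 genes in each library against hours, with untreated libraries at 0 h in grey, 5-Ph-IAA libraries in green with a line through their means, and the 3 DMSO libraries of 3 h as red squares just right of 3 h. DMSO lies above 5-Ph-IAA for OPI3 and ZRT1, beside it for ENO1, DHR2 and AGA1, and below it for HSP12.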

How the data were processed

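PolyA RNA was sequenced from 15 libraries of ZPR1-AID W303 yeast, and counts per gene were deposited by the authors as whole numbers in 1 table. Per the submitters' processing notes, FastQC 0.11.5, STAR 2.7.0, DESeq2 1.34.0 and the genome build R64 were used. Which counter, annotation and strand setting were used is not given in the sources used here, so reads of overlapping or antisense genes cannot be told apart. No column belonged to another series (0 columns).

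From these counts, edgeR 4.0.16 in R 4.3.3 fitted 1 quasi-likelihood model to all 15 libraries in 5 groups, with TMM scaling and filterByExpr, which kept 6069 of 6798 genes with a count. The p-values were adjusted by the Benjamini-Hochberg method over all tested genes, and a gene was called at an adjusted p under 0.05. The biological coefficient of variation was 17.0%. All adjusted p-values come from edgeR unless DESeq2 is named. The script was tested on simulated data. Counts summed to between 7892004 and 21282576 in the 6 libraries compared and to between 2530145 and 17044914 in the other libraries of the fit, and counting error is only part of the spread.

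Named genes were ZPR1, TEF1 and TEF2, the 15 largest rises and 15 largest falls among called genes of at least 10 CPM on average whose groups did not overlap, and, from each of 61 gene lists, up to 8 members of smallest p and up to 4 others. The members and lists were chosen with earlier results of these data known. Table rows were matched to R64 annotation in the reference tables: of 7127 rows, 6047 matched by locus tag, 123 by symbol or synonym and 957 not at all. A near-identical copy (at least 95% identity over at least 50% of the gene) was found for 320 rows, and 323 rows overlapped another annotated gene. Promoter elements were searched on both strands in the 500 bases before the start of 5787 genes of R64, and the share of these windows with a match stands for all genes. The fit was repeated with DESeq2 1.42.0, with other scalings (RLE, total counts), with other filters on low counts, without the groups not compared, with the replicate number as a block, with robust estimation, with a minimum size of change, and with each library left out.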

Additional observations from a re-analysis of the deposited data

How the results depend on the processing

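The 2193 changed genes became 2336 with DESeq2, 2180 with RLE size factors, 2402 with total counts alone, 2126 with no filter, 2124 with a mean of at least 10 CPM, 2212 with robust estimation and 1870 with only the compared groups. A log2 change of at least 1 left 396 genes, 236 higher and 160 lower. Total counts alone gave 1782 higher and 620 lower, which moved the share of higher calls to 74.19%, against 48.75% with TMM, because that scaling moves the median of all genes to 0.21. Leaving out 1 library in turn gave between 1707 and 2250 changed genes, between 878 and 1088 higher and between 829 and 1162 lower. Of the 2193 calls, 2169 kept their direction and call with RLE size factors, 1689 with total counts alone and between 1678 and 1943 with a library left out. For 5-Ph-IAA 3 h against DMSO, with leave-outs added after the data were seen, 1 library left out gave between 272 and 562 changed genes, between 180 and 363 higher and between 90 and 199 lower. The replicate block gave 2246 changed genes, but deviations of same-numbered DMSO and untreated libraries correlated at 0.020, -0.333 and -0.211. Other pairs were higher, DMSO library 3 with untreated library 2 at 0.308 and DMSO library 2 with untreated library 3 at 0.244. So few libraries cannot show which were prepared together. Under the block ZPR1 passed (log2 fold change -0.78, adjusted p = 0.0397), as did OPI10, FRE1, NOP56 and RPL30. Of 170 called genes named, 164 kept their call and direction under every alternative apart from the size rule, and none of the 170 reversed. Most of them were named for a large change or a small p, which favours keeping a call. Their share therefore does not stand for all 2193 calls. Of genes that were not called, PCT1 reversed without DMSO library 3 (log2 fold change -0.002516) and stood at 0.43 without untreated library 2, and INM1 and ITR2 reversed with total counts alone (0.062 and 0.054). The causes were not tested. Depth limits low genes, since genes under the count filter were not tested.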

Other observations

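Several smaller pathways outside the comparisons above are listed here for completeness. Among all genes 17.6% were higher and 18.5% lower, so some called members do not by themselves set a pathway apart. Of 18 purine genes 5 rose and 1 fell. ADE17, an enzyme of the last steps to inosine monophosphate, had 119.7, 107 and 166 CPM in DMSO libraries, against 52.7, 75.3 and 48.7 CPM in untreated libraries, and ADE2 had 122, 90.8 and 134 CPM in DMSO libraries, against 71.7, 77.3 and 57.5 CPM in untreated libraries. BAS1, the activator of these genes, fell 1.63-fold. The count that rose was 3 without DMSO library 1 and 2 without untreated library 3, and 2 fell without DMSO library 3. Of 20 phosphate genes 3 rose and 3 fell, or 5 fell without DMSO library 3: PHM8, a lysophosphatidic acid phosphatase, rose 2.62-fold, VTC3, of polyphosphate synthesis, 1.65-fold, and PHO90, a low-affinity phosphate carrier, fell 1.57-fold.

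Of 9 genes that act on eEF1A 5 fell and none rose (median -0.54), or 3 with total-count scaling. EFM4, a methyltransferase of eEF1A, had 90.7, 64.6 and 95.6 CPM in DMSO libraries, against 156, 160.5 and 174 CPM in untreated libraries, and EFM1, another one, fell 1.58-fold. Of 18 Yap1 genes of oxidant defence 4 fell and none rose, the oxidoreductase OYE3 by 1.91-fold, but with total-count scaling 2 fell and 4 rose, and 2 rose without DMSO library 3. GIS1, a transcription factor of stationary phase, rose 1.96-fold, 1 higher and 2 lower of 18 quiescence genes. Total-count scaling gave 3 higher and 1 lower, and at most 1 was lower when any 1 library but DMSO library 3 was left out. The NAD synthesis gene BNA3 rose 1.71-fold, the glucan synthase GSC2 1.83-fold and the lactate dehydrogenase CYB2 1.86-fold. Of 17 meiosis genes 4 rose and 1 fell. Without DMSO library 2 the counts were 2 and 2, and none fell without DMSO library 1 or any 1 of the untreated libraries, with total-count scaling, with either other filter or under the replicate block.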
